A study of Arabidopsis thaliana with 9 samples.

Results

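The response of Arabidopsis thaliana seedlings to 24 h of cold was measured on 7 of the 9 Affymetrix ATH1 arrays of the series, namely every array whose title gives the accession Col-0. Of these, 5 arrays held RNA of seedlings kept for 24 h at 4 °C and 2 held RNA of seedlings that were moved to a new chamber at 22 °C as a mock treatment. Both groups were wild-type Col-0, the standard laboratory accession, with no mutation or transgene. All seedlings were 10 days old, had been stratified for 3 days, and had grown at 22 °C in continuous light on Gamborg's medium with 0.7% agar and no sucrose. Whole seedlings, roots included, went into 1 extract per array, and the labels do not say that the replicates were separate cultures. The p-values below therefore measure only the spread between these samples. Of the cold arrays, 3 carry no set name and 2 carry the name set 4, which the labels do not explain. Cold values are listed as replicates 1, 2 and 3 followed by set 4 replicates 1 and 2, and 22 °C values as replicates 1 and 2. The other 2 arrays, of cold WS seedlings, entered the fit only to help estimate the spread.

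Plants of temperate climates gain freezing tolerance when they spend some time in low but non-freezing temperature, a process called cold acclimation. In Arabidopsis, CBF transcription factors induced within hours switch on a set of COR (cold-regulated) genes whose products protect membranes and proteins against freezing and water loss. Over the following day sugars, flavonoids and other protectants accumulate, growth slows, and photosynthesis, translation and RNA processing are adjusted to slower enzymes. The CBF genes themselves were not analysed here.

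Values are log2 signals, so that a difference of 1 corresponds to a 2-fold change, and every difference is the mean at 4 °C minus the mean at 22 °C. A probe set was called higher or lower when the adjusted p of limma was under 0.05 and the difference was at least 1 in size. By this rule 2721 of 22746 probe sets were called (12.0%), 1335 higher at 4 °C (5.87%) and 1386 lower (6.09%). Probe sets assigned to a single gene represented 13355 genes, of which 1449 were called (10.8%), 716 higher (5.36%) and 733 lower (5.49%). These shares are the background against which the gene groups below are given. They are not matched for signal level, and dim probe sets were called far less often than bright ones, as given below. An unadjusted limma p under 0.05, whatever the size, was found for 34.7% of the genes, and that count is given below for each group without a call. In a bulk extract, fewer cells of a type and less RNA per cell cannot be told apart.

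The arrays of the 2 temperatures were clearly separated. The correlation over all probe sets was 0.979 to 0.993 between cold arrays and 0.984 between the 22 °C arrays, but 0.935 to 0.952 between a cold and a 22 °C array. The 22 °C arrays were not equivalent. Replicate 2 at 22 °C correlated more closely with each of the 5 cold arrays than replicate 1 did, and it lay above replicate 1 in 66.1% of the probe sets called higher, against 47.2% of all probe sets. Of those called lower, it lay below replicate 1 in 53.6%, close to the share of all probe sets. The excess was thus seen only among the probe sets called higher. Only 586 probe sets (2.58%) differed by 1 or more between the 2 arrays, but 208 of these (35.5%) were called, 70 higher and 138 lower at 4 °C. Sizes that depend on this are given below with 1 or the other 22 °C array left out.

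Both organs of the labelled tissue had a bright marker. The root beta-glucosidase gene PYK10 had a mean of 11.57 ± 0.24 at 4 °C and 11.94 ± 0.39 at 22 °C (SD, n = 5 and 2), and the Rubisco activase gene RCA, a leaf marker, had 13.17 ± 0.16 at 4 °C and 13.64 ± 0.04 at 22 °C. The root markers EXPA7, EXPA18 and AT4G11290 were far dimmer than PYK10. Their means were 5.52, 5.76 and 5.51 at 4 °C, and 5.35, 5.1 and 6.86 at 22 °C. None of 5 root markers was called (1 had an unadjusted p under 0.05). Of 4 leaf markers only LHCB4.2 was, and it was lower at 4 °C, but all 4 had negative differences (median -0.63) and 3 had an adjusted p under 0.05. The root markers differed between cold arrays. They were lowest of all 7 in cold replicate 2 for 4 of the 5 genes (median -0.77 relative to each gene's cold median) and highest in set 4 replicate 2 for 3 (median 0.78). Markers of pollen and seed stood at 3.22 to 4.2 in the group means, near the bottom of the scale. None of 8 genes often used as references was called, 4 having an unadjusted p under 0.05, with differences between -0.43 (AT4G34270) and 0.64 (PEX4).

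The response was broad in size and about equal in both directions. Differences above 2 were found for 288 probe sets called higher and differences below -2 for 267 called lower. Beyond 3 in size the counts were 58 and 58, and beyond 4 they were 27 higher and 8 lower. Calls were rare among dim probe sets. Among probe sets in the dimmest 25% of mean signals 0.528% were called, while 18.8% of the brightest 25% were. That mean holds more cold than 22 °C arrays, so a change itself shifts where a probe set falls, and no direction is read from this split. Protein-coding genes were called in 11.7% of 12292 cases and pseudogenes in 0.325% of 923. The 5 nuclear chromosomes had similar shares, 9.64% to 11.8% of their genes. The 5 cold signals and the 2 signals at 22 °C did not overlap in 39.7% of all probe sets and in 37.8% of the genes, whatever the size of the difference. Among the 1449 called genes they did not overlap in 1439. Where a called gene is said below to have separate groups, this therefore adds little to the call. Of the 2721 calls, 1800 remained when each of the 7 Col-0 arrays was left out in turn, 894 higher and 906 lower.

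**Figure D1:**
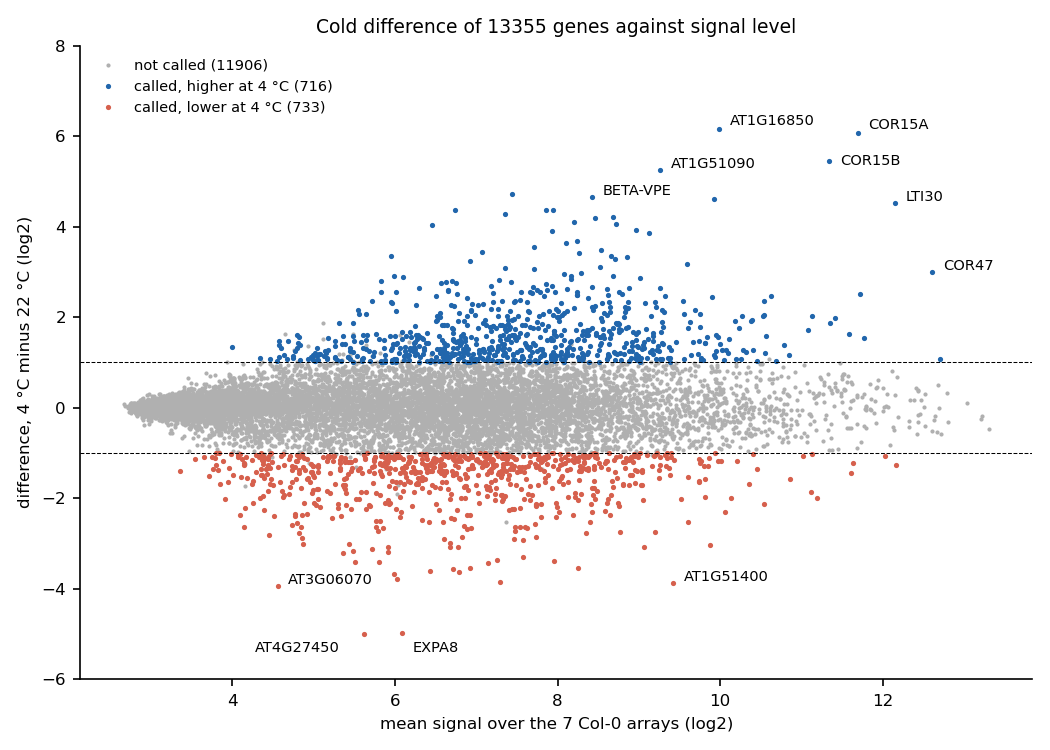
Difference in signal (4 °C minus 22 °C, log2) of 13355 genes against their mean signal over the 7 Col-0 arrays (log2), 1 point per gene; dashed lines mark differences of 1 and -1. The 716 genes called higher and the 733 called lower spread over all but the dimmest signals, with AT1G16850, COR15A and COR15B at the top and AT4G27450 and EXPA8 at the bottom.

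AT1G16850 and COR15A had the largest rises, and their order turned without 22 °C replicate 2. The signals of AT1G16850 were 11.64, 11.69, 11.86, 11.87 and 11.68 at 4 °C, against 4.97 and 6.23 at 22 °C. All cold arrays were far above both 22 °C arrays, with a difference of 6.15 (71-fold, SE 0.30, limma adjusted p = 5.02e-06). The size was 5.52 without 22 °C replicate 1 and 6.78 without replicate 2. COR15A, which encodes a stromal protein that protects chloroplast membranes during freezing, had 13.36, 13.53, 13.35, 13.53 and 13.35 at 4 °C, against 6.42 and 8.32 at 22 °C. Its close relative COR15B had 12.88, 12.88, 12.97, 13.04 and 12.72 at 4 °C, against 6.55 and 8.36 at 22 °C. The cold values of both genes hardly varied, while 22 °C replicate 2 was higher than replicate 1 by more than the whole cold range. The difference was 6.06 for COR15A (SE 0.39, adjusted p = 1.19e-05) and 5.45 for COR15B (SE 0.37, adjusted p = 1.5e-05). Without 22 °C replicate 1 or 2 it was 5.11 or 7.01 for COR15A, and 4.54 or 6.35 for COR15B. The SE and p of limma assume the same spread in all groups, which did not hold in these genes. The SD was 0.09 at 4 °C and 1.34 at 22 °C for COR15A, and 0.12 and 1.28 for COR15B.

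The dehydrin genes LTI30 and COR47 encode hydrophilic proteins that bind membranes and other proteins as cells lose water. LTI30 had 13.49, 13.41, 13.48, 13.44 and 13.38 at 4 °C, against 7.83 and 10.00 at 22 °C. COR47 had 13.48, 13.73, 13.62, 13.26 and 13.22 at 4 °C, against 10.32 and 10.63 at 22 °C. The cold signals of these genes and of COR15A lay close to the maxima of the arrays, which were 13.84 to 14.05 in the cold group. LTI30 differed by 4.53 (adjusted p = 8.31e-05), or by 3.44 and 5.61 without 22 °C replicate 1 or 2, and COR47 by 2.99 (adjusted p = 6.7e-06). COR27, which links cold to the circadian clock, had 9.73, 9.58, 9.87, 9.08 and 8.55 at 4 °C, against 6.08 and 7.40 at 22 °C. In the cold its signal was lowest in both set 4 arrays, which still lay above both 22 °C arrays. Its difference was 2.62 (adjusted p = 0.00115), and 1.96 or 3.28 without 22 °C replicate 1 or 2. With AT4G33980 (1.96) all 6 measured COR genes rose, with a median difference of 3.76, beside 10.8% of all genes called and a median of 0.03 over all genes. In each of the 6 COR genes 22 °C replicate 2 was the higher of the 22 °C arrays.

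**Figure D2:**
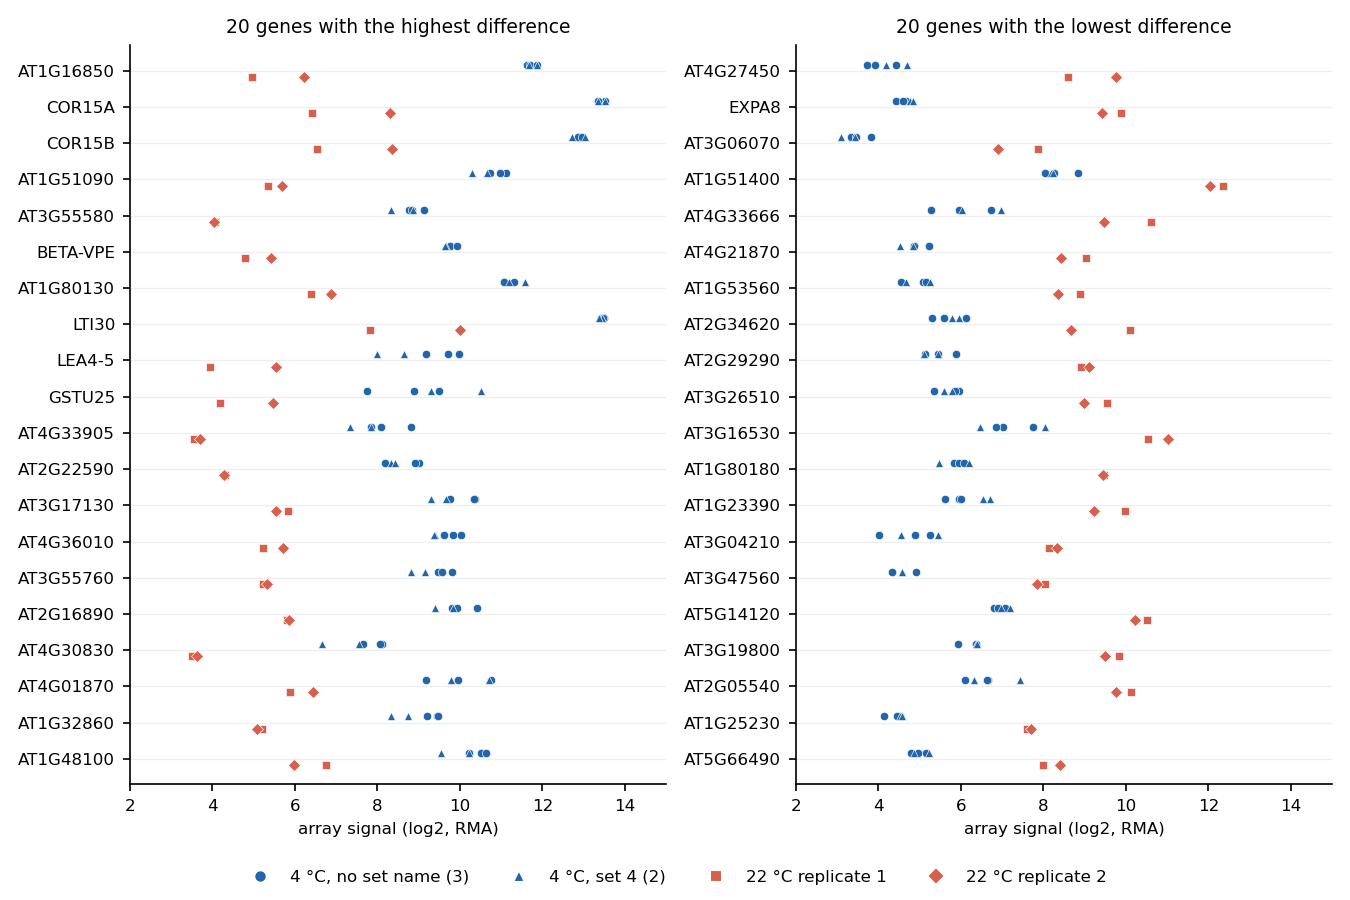
Signals (log2) on each of the 7 Col-0 arrays for the 20 called genes with the highest difference (left) and the 20 with the lowest (right). The cold arrays (blue, circles without set name and triangles for set 4) are drawn above the 22 °C arrays (red, squares for replicate 1 and diamonds for replicate 2), and genes were drawn only if the groups did not overlap.

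Several of the largest rises belonged to loci without a gene symbol in the annotation used. AT1G51090 had 11.13, 10.73, 10.98, 10.66 and 10.29 at 4 °C, against 5.34 and 5.69 at 22 °C, a difference of 5.24. AT3G55580 was close to the bottom of the scale at 22 °C, with 9.13, 8.76, 8.85, 8.87 and 8.32 at 4 °C, against 4.07 and 4.05 at 22 °C. Its 22 °C values were nearly equal, so its difference of 4.73 (SE 0.19, adjusted p = 3.26e-06) moved only between 4.64 and 4.84 when single arrays were left out. AT1G80130 (4.61), AT2G22590 (4.28), AT3G17130 (4.2), AT4G36010 (4.18) and AT3G55760 (4.09) rose as well. AT4G33905 was the only gene that passed from the lowest 25% of signals at 22 °C into the highest 25% at 4 °C, with 8.09, 7.85, 8.81, 7.33 and 7.85 at 4 °C, against 3.56 and 3.70 at 22 °C. Its difference was 4.36 (adjusted p = 5.33e-05), and no gene passed the other way.

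Other strong risers had known products. BETA-VPE, which encodes a vacuolar processing enzyme that matures proteins in the vacuole, had 9.76, 9.76, 9.94, 9.66 and 9.65 at 4 °C, against 4.78 and 5.41 at 22 °C. It rose by 4.66 (adjusted p = 6.07e-06) with almost equal cold signals, while ALPHA-VPE, GAMMA-VPE and DELTA-VPE had differences of -0.06, -0.64 and 0.04 and were not called. LEA4-5, a late embryogenesis abundant protein gene, had 9.71, 9.19, 9.97, 8.0 and 8.65 at 4 °C, against 3.95 and 5.54 at 22 °C. Here the cold arrays spread widely and the set 4 arrays were the lowest of them. The rise was 4.36 (SE 0.57, adjusted p = 0.000445), with 3.57 and 5.15 without 22 °C replicate 1 or 2. In the list of 13 LEA and dehydration-related genes 4 rose and 2 fell (median 0.10). TIL, a temperature-induced lipocalin, rose by 1.88, RD2 by 1.61 and DI21 by 1.40, while the zinc finger gene DI19 fell, with a difference of -1.57. HIS1-3, a drought-induced linker histone gene, was the second called lower at -1.11, with -1.93 or -0.29 without 22 °C replicate 1 or 2. Its call ended without 22 °C replicate 2, cold replicate 1 or 2, or either set 4 or WS array (over the Col-0 arrays log2 -1.14 to -0.29, adjusted p = 0.058 to 0.327).

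Some genes that changed by less were taken for a high moderated t, the difference over its standard error, which favours little spread. AT3G03060 had 7.95, 8.03, 7.99, 8.05 and 7.76 at 4 °C, against 5.18 and 5.34 at 22 °C. The cold range was narrow and the 22 °C values nearly equal, and the difference of 2.69 had a standard error of 0.11 (adjusted p = 3.26e-06). AT1G73480 (3.28), AT1G51380 (2.80) and AT5G16930 (2.50) were of the same kind. Over all called genes the median SD of the 5 cold arrays was 0.233, and 564 of the 1449 (38.9%) had an SD under 0.2. An SD over 0.5 was found for 99. SERPIN1, a protease inhibitor gene chosen here after its values were seen, had 11.19, 11.18, 11.34, 11.28 and 11.09 at 4 °C, against 8.82 and 8.91 at 22 °C. It rose by 2.35 (adjusted p = 6.07e-06), and every cold array was more than 2 units above both 22 °C arrays.

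AT4G27450 and EXPA8 had the largest falls, both to signals near the bottom of the scale. AT4G27450 had 3.92, 3.73, 4.42, 4.18 and 4.69 at 4 °C, against 8.60 and 9.76 at 22 °C. The groups were far apart, and the difference was -4.99 (SE 0.33, adjusted p = 1.31e-05), or -5.57 and -4.41 without 22 °C replicate 1 or 2. EXPA8, which encodes an expansin that loosens cell walls during growth, fell as far and with less spread, with 4.44, 4.68, 4.61, 4.77 and 4.83 at 4 °C, against 9.88 and 9.42 at 22 °C. Its difference of -4.98 (SE 0.17, and -4.75 or -5.21 without 22 °C replicate 1 or 2) had the smallest adjusted p among all genes named here (9.14e-07). Among loci without a symbol, AT3G06070 (-3.95), AT1G51400 (-3.88), AT4G33666 (-3.84) and AT4G21870 (-3.79) followed. AT1G51400 was one of the brightest genes to fall, with 8.04, 8.84, 8.26, 8.18 and 8.24 at 4 °C, against 12.35 and 12.03 at 22 °C. It stayed well expressed in the cold, whereas AT3G06070 reached the bottom of the scale, with 3.33, 3.83, 3.46, 3.43 and 3.1 at 4 °C, against 7.87 and 6.89 at 22 °C. AT2G34620 was called lower at -3.63, and at -2.91 or -4.35 without 22 °C replicate 1 or 2. AT2G42690, taken for the size of its moderated t, which favours little spread, had 7.56, 7.72, 7.85, 7.57 and 7.71 at 4 °C, against 10.23 and 10.19 at 22 °C. Its difference of -2.53 had a standard error of 0.11 (adjusted p = 3.6e-06).

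Signalling and transcription factor families held 0 to 2 calls each, and the shares called were near the 10.8% of all genes in the RALF and CLE (11.1%), bZIP (11.8%), bHLH (11.1%) and AP2 and ERF (10.0%) groups. Of 7 calmodulin-like calcium sensor genes 2 fell (28.6%), CML30 (-1.56) and CML42 (-1.44). Of 18 genes for RALF and CLE signalling peptides, which cells use to talk to their neighbours during growth, RALFL24 (-1.46) and RALFL33 (-1.16) fell. None was called among 8 glutamate receptor-like channel genes, 15 IQD calmodulin-binding protein genes or 6 WRKY factors, of which 2, 5 and 2 had an unadjusted p under 0.05. Of 17 bZIP factors bZIP44 rose, with 8.97, 8.50, 9.38, 9.07 and 9.58 at 4 °C, against 7.14 and 7.12 at 22 °C, and BZIP61 fell, with 5.31, 5.75, 5.37, 5.43 and 5.02 at 4 °C, against 8.14 and 7.46 at 22 °C. Neither gene's groups overlapped, and the differences were 1.97 and -2.42 (adjusted p = 0.000405 and 9.91e-05). TINY2, a member of the DREB branch to which the CBF factors belong, was the only call among 10 AP2 and ERF genes, at 1.58 (adjusted p = 0.000227). STZ, a zinc finger repressor of stress responses, rose by 1.31 (adjusted p = 0.0263), a call that ended without 22 °C replicate 1 or cold replicate 1 or 3 (log2 0.76 to 1.23, adjusted p = 0.0515 to 0.29). Of 18 bHLH factors bHLH104 fell (-1.07) and bHLH34 rose (1.02), both of them known as regulators of iron uptake, and the call of bHLH34 ended without cold replicate 1 (0.95) or 3 (0.99). None of 40 MADS-box genes was called (4 had an unadjusted p under 0.05), and 31 of these had mean signals among the dimmest 25%.

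Of 9 clock and light signalling genes COR27 and GI rose. GI, a clock protein that also acts in flowering and freezing tolerance, had 9.84, 9.21, 9.69, 8.75 and 8.52 at 4 °C, against 6.69 and 7.09 at 22 °C. All cold arrays were above both 22 °C arrays, by 2.32 on average (SE 0.34, adjusted p = 0.000836). The light-signalling factor HYH had 0.51 and the clock gene XCT 0.50, and neither was called. Hormone genes were mostly not called. GID1B, 1 of the 3 gibberellin receptor genes, rose by 1.36 (adjusted p = 0.00029), whereas GID1A had 0.41 and GID1C -0.30. The cytokinin response regulator gene RR16 had 3.90, 4.60, 4.24, 4.47 and 4.48 at 4 °C, against 5.52 and 6.71 at 22 °C. It fell, with a difference of -1.78 (adjusted p = 0.00157) that was -2.37 without 22 °C replicate 1 and -1.18 without replicate 2. None of 21 auxin genes was called with all arrays (5 had an unadjusted p under 0.05), while WES1 at -1.01 was without 22 °C replicate 1 and YUC6 at 1.07 without replicate 2.

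Of 15 defensin and thionin genes 3 rose, beside 10.8% of all genes called in either direction. PDF2.1, a defensin gene, had 9.11, 8.29, 8.73, 8.67 and 8.84 at 4 °C, against 4.69 and 5.67 at 22 °C. It rose by 3.55 (adjusted p = 3.27e-05) and was the largest of the 3 calls, beside THI2.2 (1.37) and LCR69 (1.06, and 0.90 and not called without 22 °C replicate 1). PDF1.2, a marker of jasmonate and ethylene defence, had 6.14, 6.77, 6.90, 8.47 and 4.91 at 4 °C, against 7.82 and 10.52 at 22 °C. The cold arrays and the 22 °C arrays each spread over more than 2 units, and the groups overlapped. The difference of -2.53 was not called (adjusted p = 0.0667), but it was without 22 °C replicate 1 (-3.88) or set 4 replicate 1 (-2.99).

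Flavonoid genes were higher in the cold. Of 8 measured genes of flavonoid and anthocyanin synthesis and decoration 7 rose (median 1.85), among them CHIL, which was added after its values were seen. An earlier list of 9 genes had 6 that rose (66.7%, median 1.61). DFR, which commits the pathway to anthocyanins, had 9.15, 9.51, 9.69, 8.80 and 10.56 at 4 °C, against 8.60 and 7.47 at 22 °C. The lowest cold value, in set 4 replicate 1, was close above 22 °C replicate 1, and the difference was 1.51 (SE 0.44, adjusted p = 0.0282). AT5MAT, which adds malonate to anthocyanins, had 7.19, 7.38, 7.83, 6.68 and 7.92 at 4 °C, against 5.21 and 4.39 at 22 °C and rose by 2.60. UGT78D2, a flavonoid 3-O-glucosyltransferase, had the least spread, with 11.17, 10.88, 11.04, 10.68 and 10.88 at 4 °C, against 9.12 and 8.89 at 22 °C, and rose by 1.92 (adjusted p = 2.14e-05). Its relatives UGT78D3 and UGT78D1 had 2.90, which was called, and 0.26, which was not. The pathway's non-enzymatic helper CHIL rose by 1.78 and UF3GT by 2.12. Set 4 replicate 1 was the lowest cold array in 5 of the 8 genes and set 4 replicate 2 the highest of all 7 in 5. Without 22 °C replicate 2, which was the lowest of the 7 arrays in all 8 genes, 4 calls were left, those of UGT78D3, AT5MAT, UGT78D2 and CHIL. DFR was also lost without cold replicate 3 and AT4G14090 also without 22 °C replicate 1.

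Glycosyltransferases of the UGT family, which attach sugars to small molecules, held calls in both directions. Of 47 measured members 7 rose and 5 fell (median 0.13). UGT84A3 (2.2) and UGT84A1 (1.67), which make sinapate and other hydroxycinnamate glucose esters, rose, as did UGT73C1 (2.55) and UGT72B3 (1.82). UGT71C1 (-1.64), UGT85A5 (-1.49) and the cytokinin glucosyltransferase gene UGT76C2 (-1.40) fell. Of 14 glutathione transferases 1 rose and 2 fell, and the largest differences of both signs were in the tau class. GSTU25 had 8.90, 7.75, 9.49, 9.30 and 10.52 at 4 °C, against 4.19 and 5.48 at 22 °C. It rose by 4.36 (SE 0.63, adjusted p = 0.000783) although its cold arrays covered almost 3 units, and by 3.71 or 5.0 without 22 °C replicate 1 or 2. Cold replicate 2 was the lowest and set 4 replicate 2 the highest cold array in GSTU25 and GSTU22, the arrays at the ends for the root markers, whose part in this spread was not tested. GSTU18 had 5.89, 5.87, 5.87, 6.01 and 5.87 at 4 °C, against 9.25 and 8.70 at 22 °C. It fell, with a difference of -3.07 and a standard error of 0.15 (adjusted p = 5.02e-06). GSTU22 was higher on most cold arrays but overlapped with 22 °C and was not called (1.86, adjusted p = 0.0503), except without cold replicate 2 (2.23). Among 19 CYP71B cytochrome P450 genes 4 fell, CYP71B24 with -2.01 (-2.88 or -1.15 without 22 °C replicate 1 or 2), CYP71B5 with -1.80, CYP71B22 with -1.57 and CYP71B28 with -1.42, and CYP71B26 rose by 1.61.

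Sugar transport changed in both directions. SWEET genes encode channels that let sucrose and hexoses leave cells or vacuoles, and TMT genes encode pumps that load sugars into the vacuole. SWEET13 had 9.50, 9.46, 9.96, 9.30 and 9.42 at 4 °C, against 5.86 and 6.22 at 22 °C. It rose by 3.49 (SE 0.18, adjusted p = 5.29e-06). SWEET4 rose by 2.80, SWEET1 by 1.60, SWEET10 by 1.41, and the vacuolar loader TMT2 by 2.23. TMT2 had nearly the same signal on every cold array, with 9.47, 9.54, 9.65, 9.48 and 9.17 at 4 °C, against 7.26 and 7.20 at 22 °C. The vacuolar channel gene SWEET17 fell (-1.21), as did SFP1 (-2.16) and SFP2 (-1.84), members of the sugar porter family. In all, 6 of 19 transporters rose and 3 fell (median 0.02). SAG29, the symbol that the annotation gives to a further SWEET gene outside that list, had 5.99, 6.72, 8.07, 6.07 and 8.43 at 4 °C, against 3.86 and 4.96 at 22 °C. Cold replicate 3 and set 4 replicate 2 were the highest, and the rise of 2.65 (SE 0.67, adjusted p = 0.0149) was not called without 22 °C replicate 1 (log2 2.1, adjusted p = 0.152). Of 7 starch genes APL3 and APL4 rose. They encode large subunits of ADP-glucose pyrophosphorylase, the enzyme that commits carbon to starch. APL3 had 8.52, 8.60, 9.55, 9.11 and 9.18 at 4 °C, against 5.98 and 6.21 at 22 °C and APL4 had 6.10, 6.95, 7.83, 6.87 and 6.87 at 4 °C, against 3.89 and 4.18 at 22 °C. In both genes every cold array was well above 22 °C, and the differences were 2.90 and 2.89 (adjusted p = 0.000103 and 0.000654).

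All measured autophagy genes but ATG8B had negative differences. ATG8 proteins coat the membranes of autophagosomes, which deliver cell contents to the vacuole for recycling. ATG8E had 4.64, 4.79, 5.17, 5.13 and 5.34 at 4 °C, against 7.96 and 7.52 at 22 °C. All cold arrays were below both 22 °C arrays, by -2.73 on average (adjusted p = 5.21e-05). ATG8F (-2.03), ATG8C (-1.43) and APG8H (-1.05) fell too. Thus 4 of the 10 measured genes, which were ATG3 and members of the ATG8 family, were called lower and none higher (median -0.82). ATG8B went the other way but was not called, with 6.32, 6.23, 6.85, 6.47 and 6.33 at 4 °C, against 5.79 and 6.08 at 22 °C. The call of APG8H ended without 22 °C replicate 2 or cold replicate 2 (log2 -0.99 to -0.85). Genes for the breakdown of leucine and lysine, which feed electrons to mitochondria through the electron transfer flavoprotein, formed a group chosen after its values were seen. MCCA, a subunit of methylcrotonyl-CoA carboxylase, had 4.81, 4.89, 5.04, 5.03 and 5.11 at 4 °C, against 7.14 and 6.86 at 22 °C. It fell clear of the 22 °C values, at -2.02 (SE 0.18, adjusted p = 5.19e-05). The other subunit gene MCCB (-1.08, and -0.92 and not called without 22 °C replicate 1) and D2HGDH (-1.34) fell as well. ETFQO (-0.54) was not called, nor was IVD (-0.84) except without 22 °C replicate 1 (-1.01), and all 7 genes had negative differences.

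Some genes of energy and nutrient turnover lay outside the lists and were chosen after their values were seen. AKINBETA1, a subunit gene of the energy-sensing kinase SnRK1, had 4.99, 5.19, 5.19, 4.66 and 5.12 at 4 °C, against 8.38 and 7.87 at 22 °C. It fell by more than 2 units on every cold array, with a difference of -3.09 (SE 0.26, adjusted p = 3.97e-05). SDP1, which encodes a lipase that opens up oil stores, had 5.74, 6.02, 5.81, 6.15 and 5.45 at 4 °C, against 7.93 and 7.28 at 22 °C and a difference of -1.78 (adjusted p = 0.00029). ALN, the allantoinase of purine breakdown, fell with -1.69 (adjusted p = 0.000414), ARD4 of the methionine salvage cycle with -2.27, and QQS, a starch-linked gene, with -1.10. The call of QQS ended without 22 °C replicate 1 (log2 -0.65, adjusted p = 0.0896). Citrate cycle genes stayed mostly uncalled, with SDH1-1, a succinate dehydrogenase subunit, the only call of 15 (1.06, and 0.96 and not called without 22 °C replicate 1), and none of 8 aldehyde dehydrogenase genes was called (3 had an unadjusted p under 0.05).

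Redox genes were called one by one. NDB2, an alternative NADH dehydrogenase on the outer face of the inner mitochondrial membrane, had 9.48, 9.39, 10.17, 9.87 and 10.11 at 4 °C, against 6.13 and 6.85 at 22 °C. It rose by 3.32 (adjusted p = 3.07e-05), the largest difference among 27 redox enzymes. GR1, a glutathione reductase, rose by 1.27. MSRB9, a methionine sulfoxide reductase, fell with -1.86, the plastid thioredoxin gene TRXF2 with -1.62, the sulfiredoxin gene SRX with -1.41 and ATMDAR2 with -1.01. The last call ended without 22 °C replicate 2 or cold replicate 1, 2 or 3 (log2 -0.97 to -0.69, adjusted p = 0.0215 to 0.112).

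Genes for making ribosomes were higher. All 13 measured genes of ribosome assembly and of RNA polymerases I and III had positive differences, 6 of them called (median 0.98). An earlier list of 20 genes, matched by name pattern, had 6 that rose (30.0%, median 0.76) and 19 positive differences. YAO, a nucleolar protein gene, had 8.95, 9.21, 9.16, 8.72 and 8.28 at 4 °C, against 6.29 and 6.21 at 22 °C. The lowest cold array was about 2 units above 22 °C, and the difference was 2.62 (adjusted p = 5.51e-05). NRPA1, the largest subunit of RNA polymerase I, which transcribes ribosomal RNA, had 8.47, 8.77, 8.87, 8.28 and 7.37 at 4 °C, against 6.70 and 5.95 at 22 °C. Set 4 replicate 2 was the lowest cold array in this and 6 further genes of the group, among them NRPA2, YAO, PRH75, NRPC1 and NRPC2, but not in IMP4, RRP41 or RRP41L. The difference was 2.03 for NRPA1 (SE 0.37, adjusted p = 0.00303) and 1.64 for the second largest subunit gene NRPA2 (adjusted p = 0.00081). IMP4, part of the complex that processes the small subunit's RNA, rose by 1.72, PRH75, an RNA helicase, by 1.06, and RRP41L by 1.20. PRH75 was not called without 22 °C replicate 1 or cold replicate 2 or 3 (log2 0.95 to 1.0, adjusted p = 0.0228 to 0.102), nor RRP41L without 22 °C replicate 1 (log2 0.89, adjusted p = 0.00254). NRPC2, the second largest subunit gene of RNA polymerase III, was not called (0.93) except without set 4 replicate 2 (1.12). Among 8 subunits of RNA polymerases II, IV and V only NRPB7 was called (1.53), though 7 differences were positive (median 0.63). The nucleolar gene RBL (AT3G55510), also called REBELOTE and chosen after its values were seen, rose by 2.43 (adjusted p = 1.07e-05).

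Of 31 genes for RNA binding, splicing and decay, EIF4A-2, a translation initiation helicase, rose by 1.38 and AtRZ-1c, a glycine-rich RNA-binding protein with a role in cold and splicing, by 1.27, while UBA1A fell (-1.30). Pentatricopeptide repeat (PPR) proteins edit, cut or stabilise RNA in plastids and mitochondria. Of 15 such genes 4 rose. PPR596, which acts in mitochondria, had 9.19, 9.41, 9.61, 9.28 and 8.98 at 4 °C, against 6.98 and 6.96 at 22 °C. Its cold values were well separated from 22 °C, by 2.33 (adjusted p = 1.39e-05). OTP81 rose by 1.65, PPR336 by 1.23 and OTP84 by 1.02, and the call of PPR336 ended without 22 °C replicate 1 (log2 0.83, adjusted p = 0.0687). That of OTP84 ended without either 22 °C array, cold replicate 2 or 3, or set 4 replicate 1 (log2 0.90 to 1.14, adjusted p = 0.0326 to 0.152).

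Chaperone genes changed in both directions. The Hsp70 and Hsp90 chaperone system refolds proteins. In a list of 17 measured genes of this system and of other chaperones, such as the plastid chaperonin, 6 rose while 2 fell (median 0.31). The 3 measured Fes1 genes encode exchange factors for Hsp70. Fes1A had 8.60, 8.23, 8.32, 7.47 and 7.98 at 4 °C, against 6.10 and 6.50 at 22 °C and rose by 1.82. Fes1B had 4.63, 5.07, 4.82, 4.95 and 4.88 at 4 °C, against 6.62 and 6.63 at 22 °C and fell, as did Fes1C, with differences of -1.75 and -1.13. The groups did not overlap in either Fes1A or Fes1B. Hsp70-2 rose by 1.72, Hop2, which links Hsp70 to Hsp90, by 1.38, and Cpn60beta3 of the plastid chaperonin by 1.23. Of 14 genes of folding and stress in the endoplasmic reticulum only DER2.1 was called, at -1.18, and not without 22 °C replicate 2 (log2 -1.14, adjusted p = 0.0566). Among 23 ubiquitin ligase genes, PUB19, a U-box ligase of stress signalling, had 8.18, 7.79, 8.77, 8.02 and 7.53 at 4 °C, against 4.36 and 4.89 at 22 °C. It rose by 3.43 (adjusted p = 6.35e-05), and ATL5 rose by 2.02. PUB24, a related ligase, fell at -1.94, with -2.68 or -1.21 without 22 °C replicate 1 or 2. Of 24 ubiquitin-conjugating enzyme and ubiquitin protease genes UBP23 (1.45) and UBP21 (1.11) rose and UBC19 fell (-1.13). Their share called, 12.5%, and that of the ubiquitin ligases, 13.0%, were near the 10.8% of all genes. The calls of UBP21 (log2 1.0) and UBC19 (log2 -0.90) ended without 22 °C replicate 1.

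**Figure D3:**
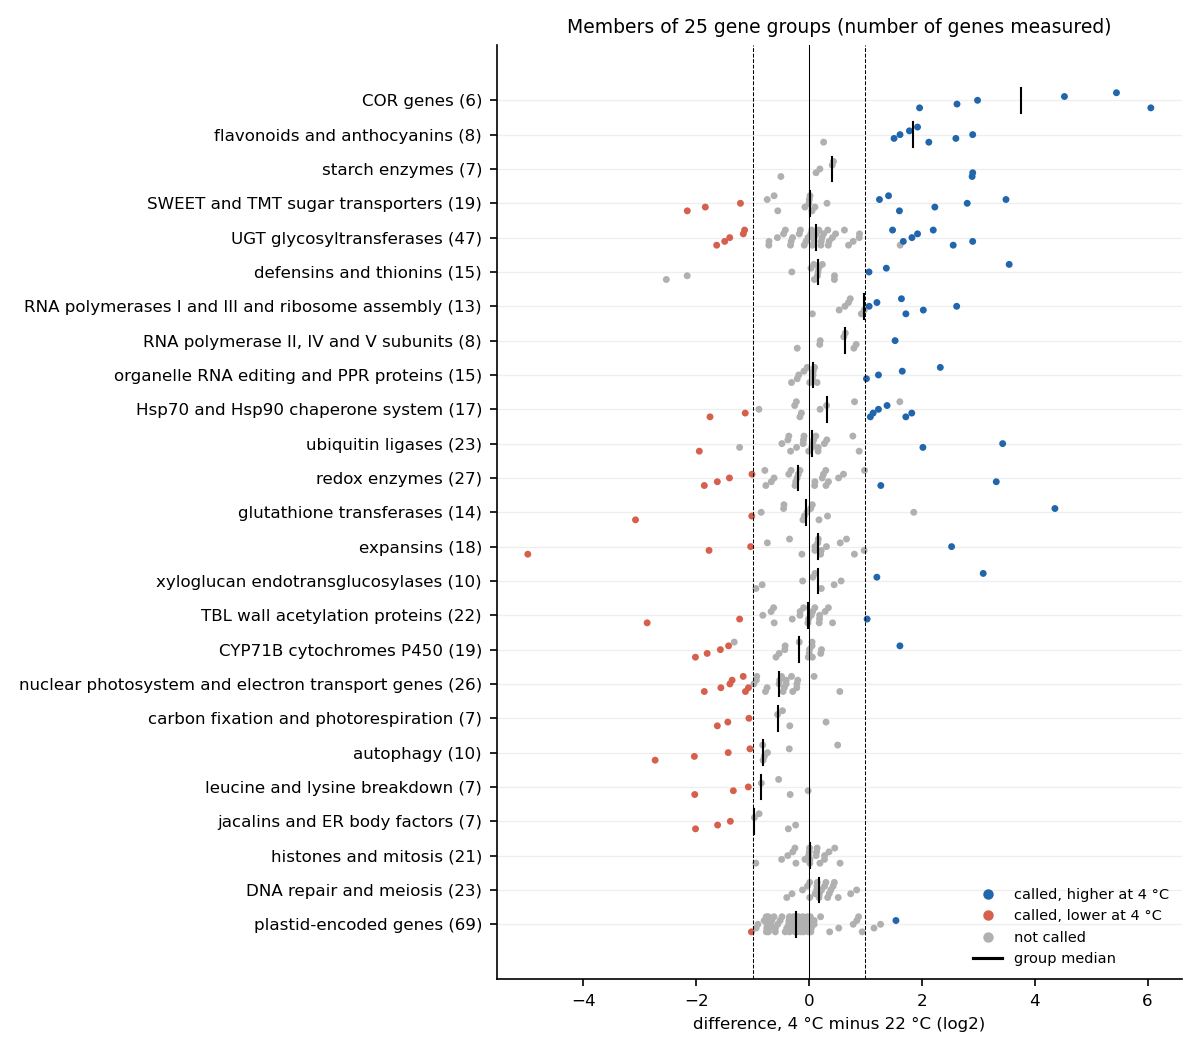
Differences (4 °C minus 22 °C, log2) of the single members of 25 gene groups, with the number of measured genes behind each name; blue and red points were called higher and lower, grey points were not called, and black bars are group medians. COR genes, flavonoid genes and ribosome production lie to the right, while photosystem, autophagy, leucine breakdown and jacalin genes lie to the left.

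Some nuclear genes of photosynthesis were lower. Of 26 genes for photosystems, antennae and electron transport 24 had negative differences and 7 fell (26.9%, median -0.53). An earlier list of 47 nuclear photosynthesis genes, matched by name pattern, had 6 that fell (12.8%, median -0.31) and 13 positive differences. LHCB4.2, which encodes the minor antenna protein CP29 of photosystem II, had 10.48, 11.03, 10.23, 10.60 and 10.60 at 4 °C, against 12.93 and 11.96 at 22 °C. It was also the gene of the group with the widest gap between the 22 °C arrays, and fell with -1.86 (SE 0.29, adjusted p = 0.00123). Its relatives LHCB4.1 (-0.52) and LHCB4.3 (-0.74) were not called. PGRL1B, a component of cyclic electron flow, had 6.93, 6.86, 7.16, 6.89 and 6.98 at 4 °C, against 8.44 and 8.29 at 22 °C. It fell with -1.40 (adjusted p = 3.21e-05), as did NdhL (-1.56) and NdhN (-1.17) of the chloroplast NADH dehydrogenase-like complex, which serves the same flow. The other called genes build or repair photosystem II, namely LPA2 (-1.36), PAM68 (-1.13) and PSB27 (-1.07). The call of PAM68 ended without 22 °C replicate 2 (log2 -0.94, adjusted p = 0.0102) and that of PSB27 without replicate 1 (log2 -0.92, adjusted p = 0.0227).

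Carbon fixation and photorespiration followed, with 3 of 7 genes lower and none higher (median -0.56). HPR, the peroxisomal hydroxypyruvate reductase of photorespiration, had 11.15, 11.24, 11.31, 11.23 and 11.08 at 4 °C, against 12.71 and 12.57 at 22 °C. Its cold arrays were alike and the difference was -1.44 (adjusted p = 1.95e-05). TRXF2, which switches on Calvin cycle enzymes in the light, fell with -1.62, and PRK, the phosphoribulokinase that it targets, with -1.06, a call that ended without either set 4 array as the difference came just short of 1. RCA had -0.47 and was not called. In tetrapyrrole synthesis CHLM, which methylates the chlorophyll precursor, was the 1 of 12 genes called, with 9.48, 9.54, 9.21, 9.08 and 9.09 at 4 °C, against 11.10 and 10.70 at 22 °C. It fell with -1.62 (adjusted p = 0.000127). HEME1 (-0.88) and HEMB1 (-0.82) were not called with all arrays, but were without 22 °C replicate 2 (-1.25 and -1.04).

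Genes encoded in the plastid genome were mostly not called. Of 69 measured, rpoB, a subunit of the plastid RNA polymerase, was called higher (1.54) and rpl33, a ribosomal protein gene, lower (-1.02), which is 2.9% of the group, with a median difference of -0.23. The call of rpoB ended without either 22 °C array or cold replicate 1 (log2 1.37 to 1.71, adjusted p = 0.053 to 0.175), and that of rpl33 without 22 °C replicate 2, cold replicate 1 or set 4 replicate 2 (log2 -0.97 to -0.95, adjusted p = 0.00272 to 0.0234). Single arrays stood apart in this group. Set 4 replicate 1 was the lowest of the cold arrays in 43 of 69 genes, with a median of -0.67 relative to each gene's cold median, and 22 °C replicate 2 was the highest of all 7 in 38, with a median of 0.63. The reaction centre gene psbC had 11.08, 11.07, 11.69, 8.61 and 11.09 at 4 °C, against 10.01 and 11.90 at 22 °C. Its set 4 replicate 1 was more than 2 units below the other cold arrays, and its 22 °C arrays were almost 2 units apart. The ribosomal protein gene rpl16 had 10.18, 9.41, 10.99, 7.05 and 9.77 at 4 °C, against 8.80 and 11.65 at 22 °C, with the same 2 arrays at the extremes. Without 22 °C replicate 1 none of the group was called higher and 5 were called lower, and without 22 °C replicate 2 there were 3 higher and 0 lower. On the same scale the 26 nuclear photosystem genes had medians of -0.03 for set 4 replicate 1, 0.66 for 22 °C replicate 1 and 0.55 for 22 °C replicate 2. None of 16 mitochondrially encoded genes was called by limma, nor had any an unadjusted p under 0.05. Here too single differences depended on 22 °C replicate 2. Without it cox1 went from 0.42 to 1.41 and nad2 from -0.78 to -1.82.

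**Figure D4:**
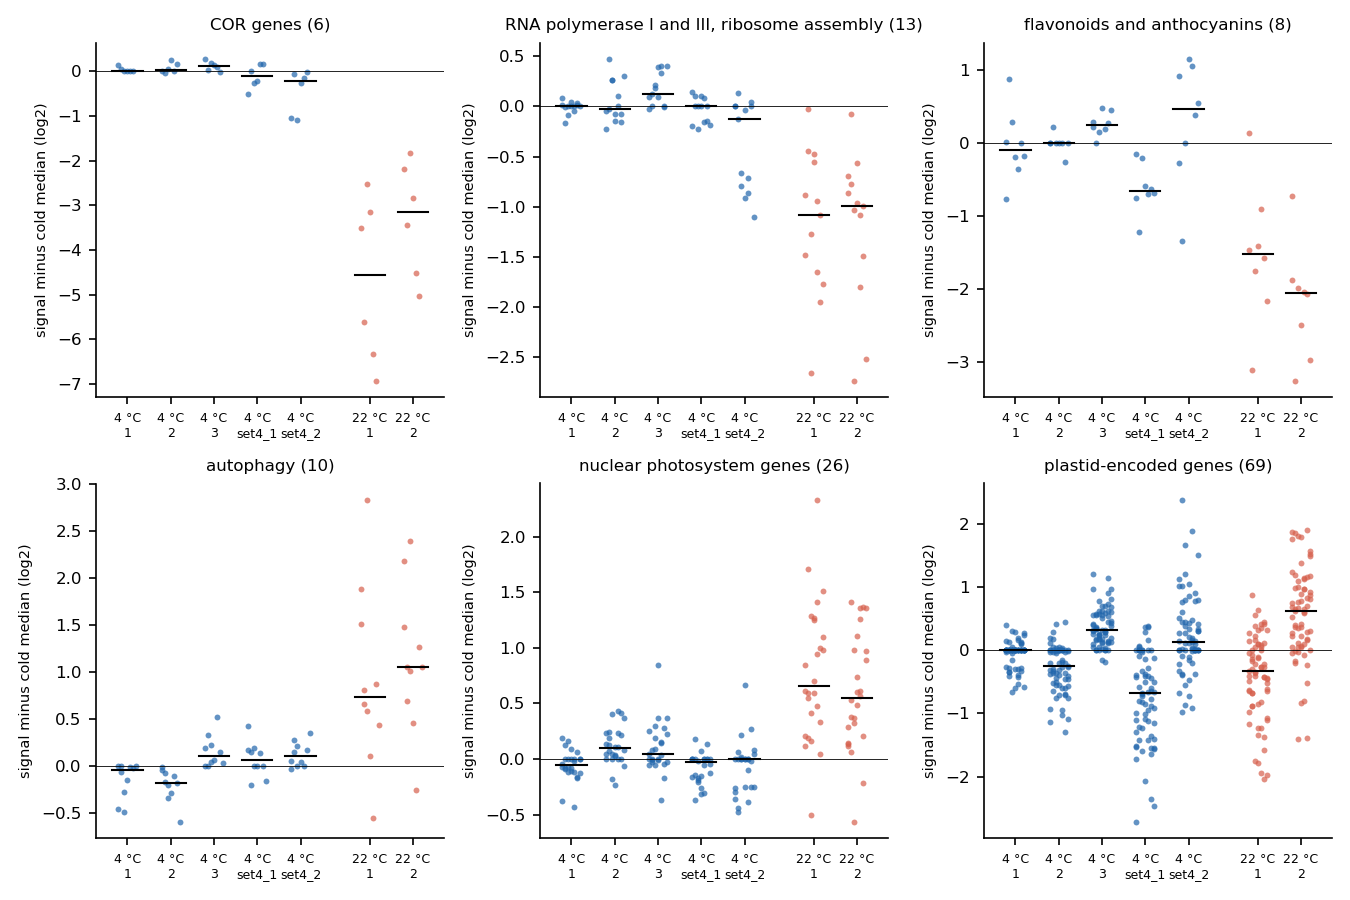
Signals of the members of 6 gene groups on each of the 7 Col-0 arrays, as log2 differences from each gene's median over the 5 cold arrays (blue); the 22 °C arrays are in red and black bars are medians over the genes of a group. The COR panel shows the cold arrays close together and 22 °C replicate 1 below replicate 2, and the plastid panel shows set 4 replicate 1 as the lowest cold array and 22 °C replicate 2 as the highest array.

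Cell wall and growth genes changed singly. Of 18 expansin genes EXPA8, EXPB3 (-1.77) and EXPA4 (-1.03) fell and the expansin-like gene EXLA2 rose (2.53), and the call of EXPA4 ended without 22 °C replicate 2 or cold replicate 1 or 3 (log2 -0.99 to -0.95, adjusted p = 0.00168 to 0.0136). XTH20, an enzyme gene that cuts and rejoins xyloglucan, had 8.31, 7.39, 8.31, 8.49 and 8.66 at 4 °C, against 4.57 and 5.72 at 22 °C. Cold replicate 2 was its lowest cold array and set 4 replicate 2 its highest, as in the root markers. It rose by 3.09 (adjusted p = 0.000395), beside XTH19 (1.20) as the 2 calls among 10 XTH genes, that of XTH19 ending without 22 °C replicate 1 or cold replicate 1 (log2 0.69 to 1.17, adjusted p = 0.0551 to 0.291). GH9B13, an endoglucanase gene, had 6.36, 7.0, 6.83, 6.76 and 6.57 at 4 °C, against 9.25 and 9.61 at 22 °C. It fell with -2.72 (adjusted p = 2.48e-05), the only call of 15. TBL36, which belongs to the wall acetylation family, had 5.93, 6.10, 6.35, 5.70 and 5.98 at 4 °C, against 9.07 and 8.69 at 22 °C. It fell with -2.87 (adjusted p = 5.85e-05). In the same family of 22, TBL25 was called lower (-1.23, and -0.85 and not called without 22 °C replicate 1) and TBL26 higher (1.03). The call of TBL26 ended without any array but set 4 replicate 1 (over the Col-0 arrays log2 0.80 to 1.26, adjusted p = 0.0536 to 0.272). CSLA03 (-2.25), a mannan synthase gene, and CSLC04 (-1.29), which makes the xyloglucan backbone, fell among 8 CSL genes. SP1L3, a regulator of cortical microtubules and of directed growth, had 7.68, 7.86, 7.94, 7.94 and 7.57 at 4 °C, against 10.16 and 9.71 at 22 °C and fell with -2.13, while THE1, a receptor kinase that senses wall integrity, fell with -1.27 and was not called without 22 °C replicate 1 (log2 -0.84, adjusted p = 0.0963). Both were chosen after their values were seen.

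Root-linked defence genes of the endoplasmic reticulum body, a store of beta-glucosidase that breaks open on wounding, were lower in part. JAL22 had 7.46, 7.20, 7.29, 6.67 and 6.44 at 4 °C, against 9.28 and 8.77 at 22 °C. It fell with -2.01 (adjusted p = 0.00118), as did its fellow jacalin gene JAL33 (-1.62) and NAI2 (-1.39), which is needed to form the body. The regulator gene NAI1 had -0.97 and was not called, except without 22 °C replicate 1 or set 4 replicate 1 (-1.05 and -1.01), and PYK10, the main beta-glucosidase of these bodies, had -0.37 (adjusted p = 0.3). In all, 3 of 7 genes of the group fell, and 7 had negative differences (median -0.97). Among 21 beta-glucosidase genes, PYK10 included, BGLU40 (-2.30) and BGLU16 (-1.65) fell, BGLU25 rose by 2.03, and BGLU15 rose by 1.02 but not without 22 °C replicate 1 or set 4 replicate 2 (log2 0.92 to 0.96, adjusted p = 0.00771 to 0.0513).

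Among membrane proteins, the tetraspanin genes TET2 (1.58) and TET3 (1.27) rose and TET10 fell (-1.43), of 15 measured. In 39 genes of the exocyst, ESCRT and membrane traffic PRA1.F1 fell (-1.45) and VPS9B rose (1.04, and 0.53 and not called without 22 °C replicate 1). CCT2, which makes the precursor of phosphatidylcholine, had 9.11, 9.04, 9.24, 9.44 and 8.45 at 4 °C, against 6.58 and 7.09 at 22 °C and rose by 2.22 (adjusted p = 0.000202). SAT32, a salt tolerance gene, had 10.26, 10.19, 10.23, 9.94 and 9.45 at 4 °C, against 7.13 and 7.63 at 22 °C. It rose by 2.64 (adjusted p = 4.88e-05), with both set 4 arrays the lowest in the cold. CCT2 and SAT32 were chosen after their values were seen.

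Genes of the nucleus and the cell cycle gave almost no calls. None was called among 23 genes of DNA repair and meiosis, 21 of histones and mitosis or 20 chromatin remodellers, with limma at these thresholds, and 9, 6 and 3 of them had an unadjusted p under 0.05. In DNA repair 19 of 23 differences were positive, with a median of 0.18, and RECQ4A (0.84) was the largest. The cell cycle inhibitor gene SIM had -0.94 and was called only without 22 °C replicate 2 (-1.10) or cold replicate 3 (-1.02). Of 9 tubulin and actin genes TUB9 rose (1.17), while TUB6 had -0.92 and was not called. Over the 57 groups, 149 of 935 genes were called (15.9%), beside 13.7% of the 1557 genes that have a symbol in the annotation and 10.8% of all genes. The RNA binding, splicing and decay (9.68%), TBL (13.6%) and tubulin and actin (11.1%) groups had shares near these. Their counts are not read as traits of those groups. Of these groups 11 had no call, 15 had calls only higher, 12 only lower and 19 in both directions.

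The set 4 arrays and the other 3 cold arrays could be set only against the same 2 arrays at 22 °C. Among probe sets called higher with all arrays together, the median difference from 22 °C was 1.34 for the set 4 arrays and 1.54 for the other 3, and among those called lower it was -1.41 and -1.40. These probe sets were called with both sets pooled, and how far the sets differ was not tested.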

How the data were processed

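The deposited values were log2 signals per probe set and array, made by the authors with RMA in the R package affy, per the submitters' processing notes, whose versions are not given in the sources used here. The array medians were 5.81 to 6.06, highest in cold replicate 3, and the values were used as deposited. The number of arrays limits the precision. The 64 control probe sets were left out. For the other 22746, linear models with a mean for each of the 3 groups were run on all 9 arrays with the package limma, version 3.58.1, under R 4.3.3, and moderated by eBayes. The procedure was tested on simulated data with independent noise and the same spread in all groups. That test says nothing about p-values of genes whose groups differ in spread. Adjusted p-values are Benjamini-Hochberg values across those probe sets.

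Probe sets were named through the platform annotation and RefSeq, 13513 with 1 gene, 503 with several and 8730 unnamed here. A gene with several probe sets was represented by the one of highest mean signal. Of 20 such genes with a call, 8 were called the same way by all their probe sets, 12 by only some, and 0 in opposite directions.

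The comparison and the gene groups were chosen with earlier results of these data known. The groups were rebuilt from explicit symbols after the annotation had been seen, the leucine and lysine group and CHIL were added after their values were seen, and AT4G33980 and AT4G14090 were placed by locus number. The genes named are the 20 highest and the 20 lowest differences without overlap, up to 5 called and 2 uncalled members of each group with the largest differences, all members of groups of at most 6, genes that passed between the lowest and highest 25% of signals, and the 10 highest moderated t in each direction. Genes from outside the groups that were added to these are mostly said to be so where they appear. Further members of some groups, among them DFR, AT4G14090 and ATMDAR2, are named beyond this rule without being marked. The same holds for STZ, which was in an earlier list only.

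Alternatives left out each array, left out the set 4 arrays, fitted them as a term or used them as the only cold arrays, left out the WS arrays, used the replicate number as a block, normalized or centred the arrays again, left out dim probe sets, weighted arrays, let the prior spread follow the signal, tested against a difference of 1, or took an adjusted p under 0.01.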

Additional observations from a re-analysis of the deposited data

Results flagged for a closer look

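In 18 of the named genes 1 of the 5 cold arrays lay far from the other 4, by Dixon's ratio of its gap to the whole range. Chance alone marks about 1 in 20 groups of this size, and each value below is the signal (log2) of the array that stood apart. Among called genes, cold replicate 2 stood apart for XTH20 (7.388) and AT1G51400 (8.839), cold replicate 1 for CSLC04 (6.967), AT1G25230 (4.139) and AT3G19800 (5.941), cold replicate 3 for UBC19 (7.762), and set 4 replicate 1 for TIL (11.5) and GSTU18 (6.011). For GSTU18 the other 4 arrays lay between 5.87 and 5.89, so that a small gap sufficed. Each of these arrays lay on the same side of both 22 °C arrays as the other cold arrays did, so the groups stayed apart in these genes. The plastid gene psbD stood apart on set 4 replicate 1 (8.498), the array that was lowest of the cold arrays in most plastid genes. Among genes that were not called, cold replicate 1 stood apart for ALPHA-VPE (4.325), DELTA-VPE (3.412) and AT3G01270 (4.436), cold replicate 2 for BGLU47 (5.193), SHN3 (5.121) and WRKY42 (3.386), cold replicate 3 for GLR3.6 (6.056), set 4 replicate 1 for RR23 (3.089) and set 4 replicate 2 for CHX20 (5.66). None of them was among the largest differences in either direction.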

How the results depend on the processing

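The 2721 calls (1335 higher and 1386 lower at 4 °C) became 692 calls, 367 higher and 325 lower, when limma's treat tested whether a difference exceeded 1 in size, a stricter question by construction. Leaving out single arrays gave 2514 to 2873 calls, 1134 to 1459 higher and 1304 to 1440 lower, with the lowest count without 22 °C replicate 1. Leaving out a 22 °C array leaves 1, which is then assumed to vary like the other groups. The other alternatives gave 2406 to 2955 calls, lowest with the set 4 arrays as the only cold arrays and highest with set 4 as a term, and an adjusted p under 0.01 left 2460. The labels give replicates 1 and 2 at both temperatures but no shared origin, so the numbers were not taken to pair arrays. The deviations of same-numbered arrays from their group means correlated at -0.06 and -0.19. With only 2 arrays at 22 °C their deviations mirror each other, so these values cannot decide whether arrays are paired. A fit with the replicate block gave 2777 calls, 1329 higher and 1448 lower. Of the 303 genes taken by the naming rule 170 were called. Of these, 140 kept the call and its direction in every alternative but treat, where 82 calls were lost. Genes named beyond that rule, such as DFR, AT4G14090 and ATMDAR2, whose calls ended without single arrays, are not counted here. None of the 170 differences turned its sign. Without 22 °C replicate 1, 17 of these calls were lost, without replicate 2, 11, and with the set 4 arrays as the only cold arrays, 16. Of the 170 calls 5 were lost without the set 4 arrays. With genes outside the 303 included, bHLH104, PRK, PSB27, QQS, BGLU15, XTH19, rpl33 and HIS1-3 were not called there. Neither HIS1-3 nor TBL26 was called with the 7 Col-0 arrays alone. The set 4 arrays as the only cold arrays, and the replicate block, each left 4 flavonoid calls. The cause of these changes was not tested. Signals near the bottom of the scale limit the falls that can be measured, and signals near the array maxima the rises.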

Other observations

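Some bright genes varied widely among the 5 cold arrays and were not called. AT3G24080 had 8.58, 9.52, 9.43, 8.36 and 6.94 at 4 °C, against 6.98 and 7.33 at 22 °C. Set 4 replicate 2 was at the level of the 22 °C arrays, while the other 4 cold arrays lay 1 unit or more above them (difference 1.41, limma adjusted p = 0.11). AT1G64330 had 7.41, 8.63, 8.70, 7.50 and 6.32 at 4 °C, against 7.08 and 6.96 at 22 °C, with cold replicates 2 and 3 the highest and set 4 replicate 2 again the lowest. AT1G47400 had 7.57, 8.67, 9.48, 6.97 and 8.47 at 4 °C, against 7.76 and 6.97 at 22 °C, with set 4 replicate 1 the lowest of the cold arrays instead. These genes were chosen after their values were seen, as those with the widest cold spread outside the plastid genome and the tau class of glutathione transferases.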
